A study of Mus musculus with 8 samples.

Results

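Transcripts of 37 genes of nucleotide excision repair and translesion synthesis were examined in the livers of mice treated with MOCA, 4,4'-methylenebis(2-chlorobenzenamine), an aromatic diamine used to harden polyurethane. The genes were taken by symbol from a list covering global and transcription-coupled excision repair, the transcription factor TFIIH and the bypass of bulky adducts. The list is by known function, without a threshold on a measured value, and was drawn up with earlier results of these data known. All 37 were among the 15210 genes of the deposited table, and 36 of them passed the filter on low values that left 12008 genes for testing. Rad18 was the exception.

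The study sequenced liver RNA from 8 female F1-TKm30 mice, 4 controls given no MOCA and 4 given MOCA at 0.05% for 4 weeks; the labels used here name no route. Mice aged 17 or 21 weeks were used, and which mouse had which age is not labelled. By their labels both groups carry a cDNA for a mutant herpes simplex virus thymidine kinase, clone 30. It is driven by the enhancer and promoter of transthyretin, a gene expressed in liver. The deposited columns of all 8 mice are headed Wild, and the sample titles do not say whether that word means a genotype. The series description places the transgene on the NOG strain, whereas a treatment label names C57BL. NOG mice carry the scid mutation of Prkdc, a kinase of DNA end joining, and lack Il2rg, a receptor chain that lymphocytes need.

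Nucleotide excision repair cuts out a short stretch of the strand that carries a bulky lesion. Damage is found either anywhere in the genome, by the XPC and UV-DDB complexes, or where it stalls RNA polymerase II, by the CSA and CSB proteins, and both routes then use TFIIH, XPA, RPA and the nucleases XPG and XPF-ERCC1. Lesions that remain when DNA is copied can be passed by translesion polymerases, which are recruited when the sliding clamp PCNA is ubiquitinated by RAD6 and RAD18. Aromatic amines can form DNA adducts after N-oxidation in the liver, and in human cells XPC and DDB2 are transcriptional targets of p53.

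Libraries held 15024945 to 17101844 reads, and the 4 MOCA libraries were all shallower than the 4 control ones. Values are normalised counts, that is, CPM (read counts relative to library size) scaled by TMM, and 1 read was worth 0.0581 to 0.0648 of them. Reads of the 37 genes, without TMM scaling, made up 0.0813% to 0.0907% of a control library and 0.0908% to 0.0971% of a MOCA library. These ranges meet without overlapping. A large part of these reads came from 2 genes. Ddb1 gave 3764 to 4335 and Rad23b 2828 to 3161 of the 13550 to 15385 reads in a library. The normalised counts of both overlapped between the groups. Of 7 hepatocyte markers, 7 were listed and none was called, and 0 of 7 had a higher mean in MOCA livers. Their summed level was 91333 to 106984 in control and 80646 to 94047 in MOCA livers. Most of that sum was Alb, with means of 65245 and 61797. In 2 of the 7, Apob and Serpina1a, every MOCA mouse lay below every control mouse. Across all tested genes, groups did not overlap in 10.5%, in either direction. Of 10 lymphocyte markers only Cd4 and Cd8a were listed, with a summed level of 0.827 to 1.83 over all mice. Summed markers of Kupffer cells (192 to 242 in control and 200 to 267 in MOCA livers) and of bile duct cells (40.5 to 49.5 and 36.3 to 54.9) overlapped between the groups. Sinusoidal endothelial markers summed to 298 to 357 in control and 287 to 298 in MOCA livers, and 1 of 5 had a higher mean after MOCA. Stellate cell markers summed to 455 to 503.1 and 377 to 461, and 3 of 7 had a higher mean after MOCA. Of the stellate markers Reln had the highest level, with means of 247 in control and 201 in MOCA livers. The means of Acta2, among the 3 that were higher, were 2.24 and 4.17. The part of these cell-type levels in the results was not tested. In bulk liver RNA, fewer cells of a type and less RNA per cell cannot be told apart.

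None of the 36 tested genes changed at an adjusted p under 0.05 (limma on log2(value + 1), Benjamini-Hochberg adjustment over 12008 genes). Across all tested genes 0.666% were called, 0.4% higher and 0.266% lower in MOCA livers, or 48 and 32 genes; the split was 131 and 38 after scaling to equal sums and 45 and 51 after upper quartile scaling. An unadjusted p under 0.05 was reached by 5 of the 36, a smaller share than the 17.5% of all tested genes. Of these 5, Polk, Ube2b, Cdk7 and Mnat1 had higher and Lig1 had lower mean levels after MOCA. In 4 of the 36, Polk, Ube2b, Mnat1 and Ccnh, every MOCA mouse lay above every control mouse. In 0 of the 36 every MOCA mouse lay below. That is close to the share among all tested genes, where groups did not overlap, in either direction, in 10.5%. DESeq2 on the recovered reads called Polk and Ube2b higher, while it called 3.61% of all genes to which it gave an adjusted p. The quasi-likelihood test of edgeR called 0 of the 36, with 5 at an unadjusted p under 0.05, and 0.675% of all tested genes.

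The fold changes of the 36 genes were small. They ran from -0.44 to 0.44 on the log2 scale with a median of 0.10, beside 0.01 for all tested genes, and 28 were above 0 against 8 below, beside 51.1% above 0 over all tested genes. The 95% interval lay within 0.5 log2 units of no change for 27 of the 36, a share of 75% against 77.8% of all tested genes. That bound is 1.41-fold in value + 1, and in genes of low level it allows a larger fold change of the value itself. The interval lay within 1 log2 unit for each of the 36. The mean log2 difference from the control mean, taken over the 36 genes, was 0.05, -0.04, -0.03 and 0.02 in control mice 1 to 4 and 0.04, 0.07, 0.08 and 0.13 in MOCA mice 1 to 4. By this mean MOCA mouse 1 lay within the control range and the other 3 MOCA mice above it. The median over the same genes was 0.03, -0.05, -0.04 and 0.00 in control mice and 0.05, 0.07, 0.08 and 0.08 in MOCA mice, with all 4 MOCA mice above the controls.

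**Figure D1:**
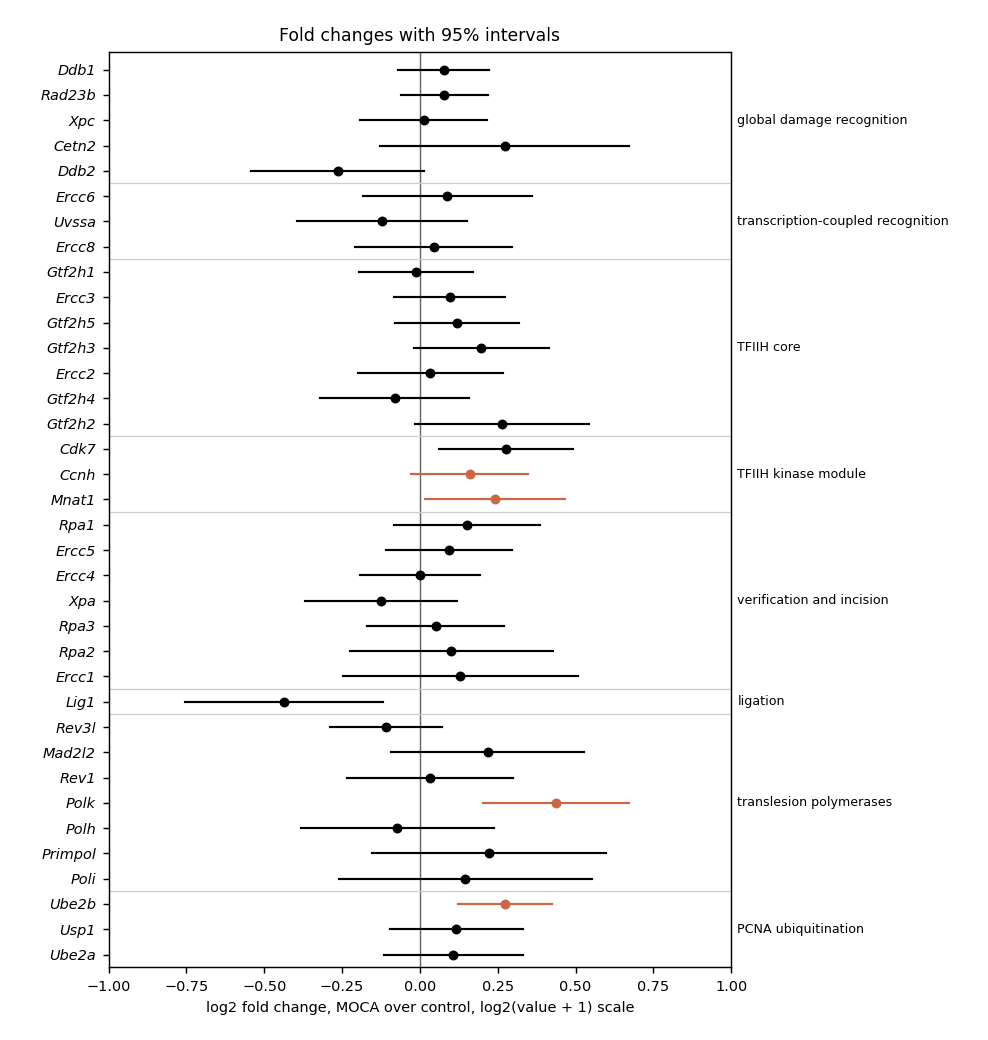
Log2 fold change of each of the 36 tested genes, from log2(value + 1) of MOCA against control mice, with its 95% interval and grouped by role. Intervals of 27 genes stay within 0.5 of the zero line, with Polk highest at 0.44 and Lig1 lowest at -0.44.

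Polk, Ube2b and Mnat1, each with no overlap between the groups, have entries in the RefSeq promoter table of GRCm38.p6, from which the 250 bases before an annotated transcript start are shown. Capitals mark the only motifs found among those searched, the GC box GGGCGG (reverse CCGCCC) in Polk and the E-box CACGTG in Ube2b, and none of these overlaps another.
Polk, chr13:96542580-96542829, minus strand: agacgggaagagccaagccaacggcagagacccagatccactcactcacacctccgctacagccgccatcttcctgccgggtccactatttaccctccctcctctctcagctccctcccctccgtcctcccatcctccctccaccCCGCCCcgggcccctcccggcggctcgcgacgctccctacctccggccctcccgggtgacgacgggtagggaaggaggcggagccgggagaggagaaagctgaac
Ube2b, chr11:52000787-52001036, minus strand: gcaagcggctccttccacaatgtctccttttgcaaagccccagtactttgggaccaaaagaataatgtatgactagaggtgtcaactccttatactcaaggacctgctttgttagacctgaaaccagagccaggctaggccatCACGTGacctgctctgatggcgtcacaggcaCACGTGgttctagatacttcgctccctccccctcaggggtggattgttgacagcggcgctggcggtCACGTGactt
Mnat1, chr12:73123467-73123716, plus strand: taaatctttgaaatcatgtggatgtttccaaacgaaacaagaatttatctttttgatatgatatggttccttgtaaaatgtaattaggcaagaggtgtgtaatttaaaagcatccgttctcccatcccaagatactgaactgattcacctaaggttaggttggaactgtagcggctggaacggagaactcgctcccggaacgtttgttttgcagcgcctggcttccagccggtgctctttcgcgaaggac
The 3 windows differ in make-up. Their GC content is 68% in Polk, 53.2% in Ube2b and 43.2% in Mnat1. Polk has 1 GC box, starting 105 bases before the start, Ube2b has 3 E-boxes, starting 107, 76 and 10 bases before it, and Mnat1 has none of the motifs. The window depends on the start chosen, here the outermost in the table. The other listed Polk start has 46.8% GC and 0 of the motifs spelled out here. The other listed Ube2b start has 73.2% GC with 2 GC boxes, 1 ETS motif and 0 E-boxes, and the Ube2b and Mnat1 windows lie 3359 and 11532 bases inside the gene record, whose other transcript models begin further out.

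Of the 37 genes 30 have an entry in that table, and the searches covered both strands. The E-box CACGTG was found in 8 of the 30 (26.7%) and in 8.54% of the 9160 promoters of tested genes; the 8 were Cdk7, Ercc6, Ercc8, Gtf2h1, Gtf2h5, Rev1, Rpa1 and Ube2b. Their median log2 fold change was 0.10, with 7 of 8 above 0, against 0.09 and 16 of 21 for the tested genes without it. Promoters with at least 3 E-boxes, as in Ube2b, number 11 of the 9160 (0.12%). GC boxes were in 66.7% of the 30 against 58.5% of the tested promoters, CCAAT in 40% against 36.6%, the ETS motif CCGGAAG in 16.7% against 13.8% and TATAAA in 3.33% against 6.78%. The cAMP response element TGACGTCA was in 0 of the 30 and 2.74% of tested promoters, and the p53 consensus, with a spacer of up to 13 bases, in 0 and 0.0218%. The p53 search allowed no mismatch and found the consensus in 2 of the 9160 tested promoters, so 0 of 30 says little. Xpc and Ddb2 are not among the 30, and their promoters were not searched. Median GC content was 63.6% for the 30 and 59.6% for the tested promoters.

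Global damage recognition was led in level by Ddb1 and Rad23b. Ddb1, the adaptor of cullin-4 ubiquitin ligases and large subunit of UV-DDB, was 246 ± 11.6 in control and 259 ± 11.6 in MOCA livers (SD, n = 4 mice a group here and below). Rad23b, which stabilises XPC, was 180 ± 4.54 and 190.1 ± 10.3. Per kilobase of exon they were the top genes of the 37, at 55.1 and 47.2 in control livers, where the next, Ube2b, had 31.0.

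Xpc, the sensor that starts global repair, was 25.3, 21.6, 25.2 and 27.5 in control mice and 23.3, 25.4, 23.7 and 28.1 in MOCA mice. The groups overlapped almost entirely, and the log2 fold change was 0.01 with a 95% interval of -0.19 to 0.21 (limma adjusted p = 0.964). Ddb2, the subunit of UV-DDB that binds the lesion, was 4.42, 2.96, 3.33 and 3.72 in control mice and 3.37, 2.64, 2.59 and 2.69 in MOCA mice. MOCA mice 2 to 4 lay below the lowest control and MOCA mouse 1 among the controls, with a log2 fold change of -0.26 and an interval of -0.54 to 0.01 (limma adjusted p = 0.309). Exons of Ddb2 overlap those of Acp2 on the opposite strand over 26.7% of their length, and whether the counting used strand is not given in these sources. Acp2, a lysosomal acid phosphatase, was 48.7 ± 3.16 in control and 59.0 ± 2.41 in MOCA livers. Its part in the Ddb2 level was not tested. Per kilobase, Ddb1 exceeded Ddb2 by 29.3 to 42.7 times in control and 39.6 to 55.6 times in MOCA livers, ranges that overlap. Cetn2, the centrin bound to XPC, was 5.29, 5.80, 3.09 and 6.001 in control mice and 4.71, 7.22, 5.70 and 7.27 in MOCA mice, with control mouse 3 lowest of the 8 (log2 fold change 0.27, interval -0.13 to 0.67). Without that mouse the log2 fold change was 0.09.

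**Figure D2:**
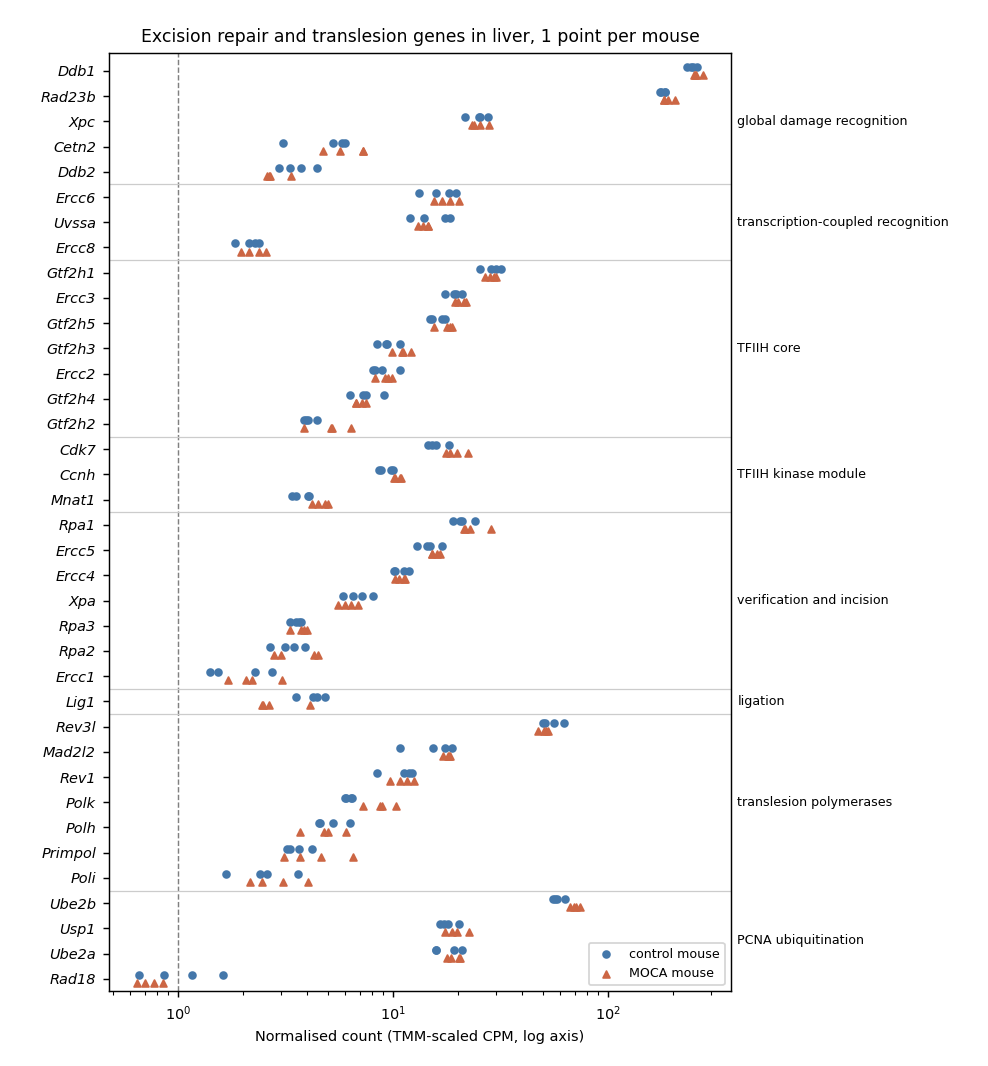
Normalised counts of the 37 genes in each mouse on a log axis, grouped by role, with circles for control and triangles for MOCA mice and a dashed line at the filter value of 1. Levels span from Rad18 around the dashed line to Ddb1 between 232 and 276, and most genes have overlapping groups.

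The genes that couple repair to transcription had overlapping groups. Ercc6, the CSB remodeller that binds stalled polymerase, was 16.7 ± 2.84 in control and 17.8 ± 2.03 in MOCA livers. Ercc8, the CSA subunit of a ubiquitin ligase, was 2.17 ± 0.231 and 2.27 ± 0.262. Uvssa, which brings TFIIH to the stalled polymerase, was 15.5 ± 3.03 and 13.97 ± 0.721. Their log2 fold changes were 0.09, 0.04 and -0.12, each with an interval within 0.5 of 0. Ercc6 and Uvssa were both lowest in control mouse 2, at 13.3 and 11.98, and highest in control mouse 3 for Uvssa, at 18.5, and MOCA mouse 3 for Ercc6, at 20.3.

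None of the 7 TFIIH core genes reached an unadjusted p under 0.05, which 17.5% of all tested genes reached. The median log2 fold change of the 7 was 0.10. The helicase Ercc2 (XPD), which opens DNA and checks for the lesion, was 8.99 ± 1.23 in control and 9.19 ± 0.728 in MOCA livers. The translocase Ercc3 (XPB), the other motor of the complex, was 19.3 ± 1.4 and 20.7 ± 1.14. The structural subunits Gtf2h1 (29.0 ± 2.77 and 28.6 ± 1.41) and Gtf2h4 (7.55 ± 1.14 and 7.04 ± 0.372) had slightly lower means after MOCA. Gtf2h5, the small subunit that stabilises the complex, had 16.1 ± 1.254 and 17.6 ± 1.52, and Gtf2h3 had 9.50 ± 0.98 and 11.02 ± 0.923. Gtf2h2, the partner that stimulates the Ercc2 helicase, had the widest relative spread of the 7 among MOCA mice, a coefficient of variation of 19.8%. It was 4.42, 3.86, 3.95 and 4.02 in control mice and 5.15, 3.87, 5.18 and 6.35 in MOCA mice, where MOCA mouse 2 lay within the controls and the other 3 above them (log2 fold change 0.26, interval -0.02 to 0.54, limma adjusted p = 0.313).

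The 3 subunits of the TFIIH kinase module, which phosphorylates the tail of RNA polymerase II, all had higher mean levels after MOCA, without a call. Their median log2 fold change was 0.24. Cdk7, the kinase, was 18.2, 14.5, 15.2 and 15.8 in control mice and 18.3, 19.8, 22.3 and 17.7 in MOCA mice. Control mouse 1 alone reached into the MOCA range (log2 fold change 0.28 ± 0.10 SE, interval 0.06 to 0.49, limma adjusted p = 0.191). Mnat1, the assembly factor MAT1, was 4.01, 3.54, 3.39 and 4.08 in control mice and 4.20, 4.96, 4.47 and 4.83 in MOCA mice. The groups did not overlap, though the lowest MOCA and highest control mice lay close together (log2 fold change 0.24 ± 0.10 SE, interval 0.01 to 0.47, limma adjusted p = 0.259). Ccnh, the cyclin H partner, was 8.83, 10.05, 9.75 and 8.64 in control mice and 10.1, 10.8, 10.9 and 10.2 in MOCA mice. Here too the groups did not overlap, by a narrow margin (log2 fold change 0.16 ± 0.09 SE, interval -0.03 to 0.35, limma adjusted p = 0.365). Per kilobase of exon, Cdk7 exceeded Mnat1 by 10.5 to 12.3 times in control and 9.94 to 13.5 times in MOCA livers, and Ccnh exceeded Mnat1 by 4.16 to 5.64 and 4.15 to 4.81 times. Neither ratio separated the groups. Mnat1 spans 161.8 kb and Rev3l 143.7 kb, the only tested genes of the set above 100 kb; the median log2 fold change of all 1482 tested genes above 100 kb was -0.05.

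The genes of lesion verification and incision had no unadjusted p under 0.05 among 7, beside 17.5% of all tested genes. Xpa, the scaffold that checks the opened site, was 6.89 ± 0.93 in control and 6.21 ± 0.563 in MOCA livers. Of the nucleases, Ercc5 (XPG), which cuts 3′ of the lesion, was 14.8 ± 1.69 and 15.8 ± 0.708, and Ercc4 (XPF), which cuts 5′ of it, was 10.9 ± 0.831 and 10.9 ± 0.584. Ercc1, the partner Ercc4 needs, was lower, at 1.99 ± 0.622 and 2.26 ± 0.57. Per kilobase Ercc4 exceeded Ercc1 by 2.24 to 3.77 times in control and 1.79 to 3.40 times in MOCA livers, and the ranges overlap. The interval of the Ercc1 log2 fold change, -0.25 to 0.51, was the only one of the 7 to pass 0.5. The single-strand binding proteins Rpa1, Rpa2 and Rpa3 had log2 fold changes of 0.15, 0.10 and 0.05, and leaving out 1 mouse gave as little as 0.061, 0.016 and 0.024. Rpa1 was highest in MOCA mouse 4, at 28.5, while its other MOCA values, 21.5 to 22.7, lay within the control range of 18.9 to 24.1; the lowest Rpa1 fold change is that without MOCA mouse 4.

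Lig1, the ligase that seals nicks behind replication forks and repair patches in dividing cells, had the lowest log2 fold change of the 36. It was 4.42, 3.54, 4.81 and 4.26 in control mice and 2.48, 2.45, 2.66 and 4.09 in MOCA mice. MOCA mice 1 to 3 lay below every control, and MOCA mouse 4 lay among the controls. The log2 fold change was -0.44 ± 0.14 SE, with an interval of -0.75 to -0.12 (limma adjusted p = 0.167), and it was -0.57 without MOCA mouse 4 (limma adjusted p = 0.0853). Its adjusted p ran from 0.0853 to 0.359 over the alternatives. MOCA mouse 4 also had the highest level of the proliferation marker Mki67, 12.4, beside 2.98 to 5.28 in the other MOCA mice and 2.82 to 5.87 in controls. Of 12 proliferation markers 12 were listed, 8 were tested and none was called, and 11 had a higher mean in MOCA livers. Mcm2 and Mcm5 were also highest in MOCA mouse 4, at 5.01 and 3.48, beside 2.06 to 2.55 and 1.35 to 1.75 in the other MOCA mice. The summed level of the markers was 71.8 to 125 in control and 97.1 to 139 in MOCA livers. Most of that sum was Tyms, with means of 80.7 and 84.9, which was highest in control mouse 1, at 99.1. The part of proliferating cells in the Lig1 values was not tested.

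**Figure D3:**
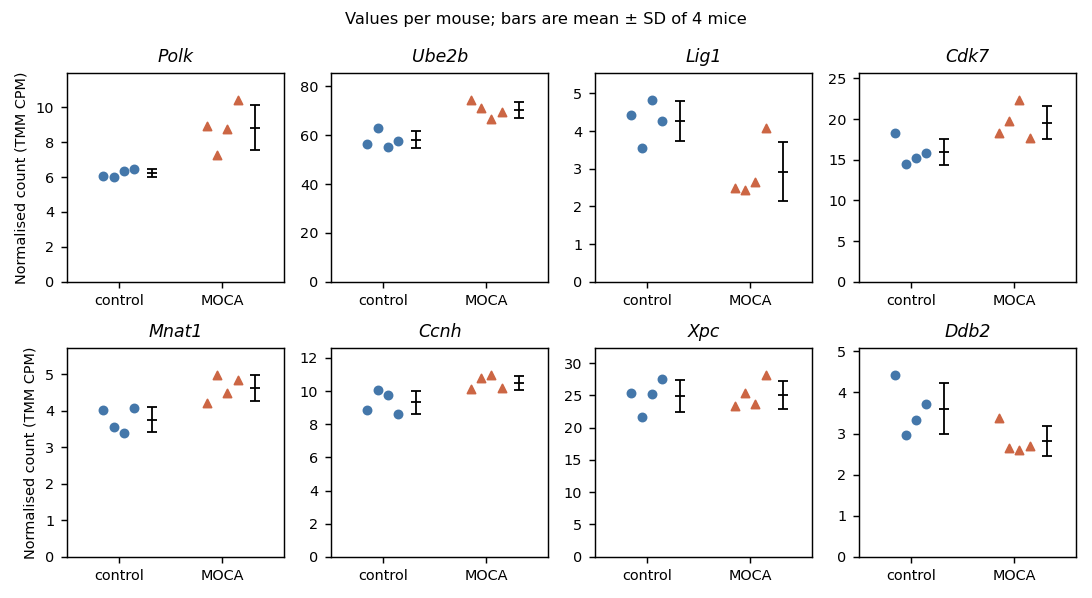
Normalised counts per mouse (circles control, triangles MOCA) for 8 genes, with the mean and SD of 4 mice beside each group and axes from 0. Polk, Ube2b, Mnat1 and Ccnh show no overlap, MOCA mouse 4 sets Lig1 apart at 4.09, and Xpc overlaps throughout.

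Among the translesion polymerases Polk had the highest log2 fold change of all 36 genes. Polk encodes polymerase kappa, which copies past bulky adducts on the minor-groove side of guanine. Its level was 6.04, 5.99, 6.36 and 6.48 in control mice and 8.91, 7.28, 8.75 and 10.4 in MOCA mice. All MOCA mice lay above all controls, which were close together, and MOCA mouse 4 was highest. The means were 6.22 ± 0.239 and 8.83 ± 1.27, and the log2 fold change was 0.44 ± 0.11 SE with an interval of 0.20 to 0.67 (limma adjusted p = 0.0848). DESeq2 gave an adjusted p of 0.0411, the lowest of the alternatives, which reached up to 0.196.

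The other translesion polymerase genes had overlapping groups, and none reached an unadjusted p under 0.05, beside 17.5% of all tested genes. Polh, polymerase eta, which copies past ultraviolet photoproducts, was 5.17 ± 0.825 in control and 4.89 ± 0.971 in MOCA livers. Poli, polymerase iota, was 2.57 ± 0.795 and 2.94 ± 0.826. Rev1, a scaffold that binds the other bypass polymerases and inserts cytosine, was 10.9 ± 1.71 and 11.2 ± 1.16. Their log2 fold changes were -0.07, 0.15 and 0.03. Rev3l, the catalytic subunit of polymerase zeta, which extends from inserted bases, was 54.6 ± 5.71 and 50.5 ± 2.23, with a log2 fold change of -0.11 and an interval of -0.29 to 0.07. Mad2l2, the accessory subunit REV7, was 18.8, 17.5, 10.7 and 15.3 in control mice and 18.1, 18.0, 18.5 and 17.2 in MOCA mice. Control mouse 3 lay well below the other 7, and the log2 fold change of 0.22 (interval -0.09 to 0.53) was 0.06 without it. Primpol, which restarts synthesis beyond a lesion, was 3.66, 3.22, 3.33 and 4.20 in control mice and 3.12, 4.64, 3.69 and 6.54 in MOCA mice, with MOCA mouse 4 highest; its log2 fold change of 0.22 was 0.06 without that mouse. Exons of Rev1 overlap those of Eif5b over 29.1% and exons of Primpol those of Cenpu over 28.3% of their length, both on the opposite strand. Of the 37 genes 10 share some exon bases with another gene, and Polk, Ube2b, Cdk7, Mnat1 and Ccnh share none.

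Of the genes that set PCNA ubiquitination, Ube2b alone had groups that did not overlap. Ube2b and Ube2a encode the RAD6 ubiquitin-conjugating enzymes. Ube2b was 56.5, 63.1, 55.2 and 57.8 in control mice and 74.3, 71.4, 66.7 and 69.4 in MOCA mice. All MOCA mice lay above all controls. The means were 58.2 ± 3.47 and 70.4 ± 3.18, and the log2 fold change was 0.27 ± 0.07 SE with an interval of 0.12 to 0.42 (limma adjusted p = 0.0928). DESeq2 gave an adjusted p of 0.0278 and limma after scaling to equal sums 0.0348, and the alternatives ran up to 0.231. Ube2a was 17.9 ± 2.52 and 19.3 ± 1.26, with a log2 fold change of 0.11, an interval of -0.12 to 0.33 and overlapping groups. Whether the pair differ in response was not tested. Per kilobase of exon, Ube2b exceeded Ube2a by 2.75 to 3.49 times in control and 3.33 to 3.70 times in MOCA livers, and the ranges overlap. Their coding sequences, 459 bases each, are 77.6% identical with a longest shared stretch of 17 bases, and their transcripts share 0 stretches of 50 bases.

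Rad18, the ligase that works with RAD6, was the lowest of the 37 genes per kilobase and was not tested across genes. It was 1.63, 1.16, 0.864 and 0.66 in control mice and 0.70, 0.645, 0.778 and 0.855 in MOCA mice, from 10 to 28 reads a library. The groups overlapped, and the difference of -0.23 on the log2(value + 1) scale gave p = 0.171 in a two-sided exact permutation test over 70 arrangements, where the smallest possible p is 0.0286. Usp1, which removes ubiquitin from PCNA, was 18.0 ± 1.68 and 19.7 ± 2.14, with a log2 fold change of 0.12.

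**Figure D4:**
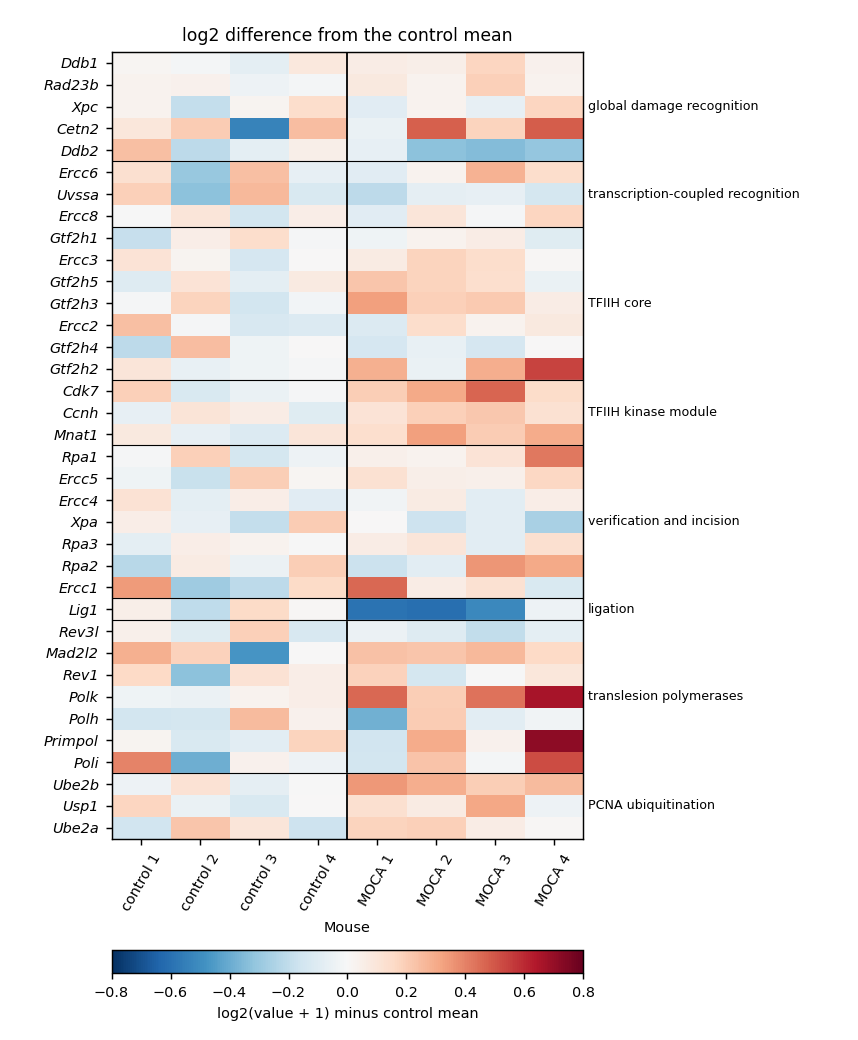
Log2 difference of each tested gene in each mouse from the control mean, red for higher and blue for lower, with control mice to the left of the line and MOCA mice to the right. Polk and Ube2b are red in all 4 MOCA mice, Lig1 is blue in MOCA mice 1 to 3, and MOCA mouse 4 holds the strongest red cells, for Polk and Primpol.

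Of 47 other genes of these pathways 43 were tested and none was called by limma. An unadjusted p under 0.05, which 17.5% of all tested genes reached, was found for 3 of the 43, all with higher means after MOCA. Their median log2 fold change was 0.06, with 29 above 0 and 14 below. Chd1l, a chromatin remodeller that works with UV-DDB, was 5.75, 4.83, 4.26 and 5.16 in control mice and 7.95, 8.51, 7.06 and 6.90 in MOCA mice. The groups were well apart, and the log2 fold change was 0.52 ± 0.11 SE (limma adjusted p = 0.0617); DESeq2 and limma after scaling to equal sums called it. Rfc4, a subunit of the clamp loader, had a log2 fold change of 0.33 (limma adjusted p = 0.244). Xab2, a binding partner of XPA, was 15.7 ± 0.544 in control and 17.8 ± 0.98 in MOCA livers (limma adjusted p = 0.27). Usp10, a deubiquitinase, had a log2 fold change of -0.17 (limma adjusted p = 0.30).

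Of 50 listed genes of other DNA repair routes 43 were tested and none was called by limma. An unadjusted p under 0.05 was found for 5 of the 43, beside 17.5% of all tested genes. Their median log2 fold change was 0.03. Atrip, which carries the checkpoint kinase ATR to single-stranded DNA, was 2.95 ± 0.247 in control and 4.37 ± 0.668 in MOCA livers (limma adjusted p = 0.111). Xrcc5, the Ku80 subunit of end joining, was 14.2 and 19.1 on average (limma adjusted p = 0.118). Ung, the uracil glycosylase of base excision repair, was 4.26 and 2.55 (limma adjusted p = 0.162), and the mismatch repair gene Msh3 had a log2 fold change of -0.22 (limma adjusted p = 0.237). Among p53 target genes outside the set, 25 of 30 were tested and 5 were called higher, namely Phlda3, Ccng1, Eda2r, Zmat3 and Aen. Their log2 fold changes ran from 0.53 for Aen to 1.63 for Phlda3, and the median over the 25 was 0.37. Xpc and Ddb2, named above as p53 targets in human cells, had 0.01 and -0.26. Whether p53 controls these 2 genes in mouse liver was not tested, nor was the difference between these lists.

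**Figure D5:**
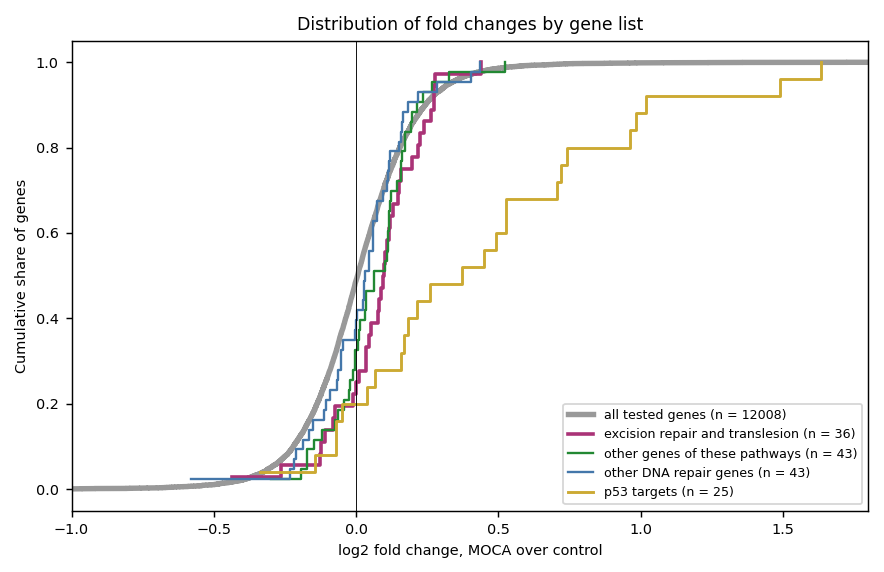
Cumulative share of genes by log2 fold change, MOCA over control, for all 12008 tested genes, of which 16 lie outside the plotted range, and for 4 gene lists. The curve of the 36 genes crosses the middle of the axis at 0.10, close to that of the other pathway genes at 0.06, and the p53 targets lie furthest right at 0.37.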

How the data were processed

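Liver RNA was extracted with RNeasy columns, and directional, ribosomal RNA-depleted MGIEasy libraries were made from 200 ng, per the labels' protocols. The submitters' processing notes name the build mm10 and, with no role or order, edgeR, RSEM, Bowtie2 and Trimmomatic 0.38; they do not say whether counting used strand. The authors deposited 1 table of normalised signal, a scaled count per gene and mouse. Each value is a whole multiple of 1 read in its column (100%, tolerance 0.001), and the column factors equal TMM factors recomputed from the reads (largest difference 0). Replicate libraries differed by more than counting error, with a chi-square over its degrees of freedom of 12.5 to 26.9. The labels number the mice separately and name no cage or day.

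Genes reaching a value of 1 in at least 4 of 8 libraries (12008, with 3202 left out) entered the test with limma 3.58.1 in R 4.3.3 (lmFit, eBayes with trend) on log2(value + 1), without covariates. Calls needed a Benjamini-Hochberg adjusted p under 0.05, and intervals are 95% intervals. Alternatives were pseudocounts of 0.25 and 4, other filters, 3 rescalings, other eBayes settings, a replicate block, edgeR 4.0.16 and DESeq2 1.42.0 on the recovered reads, and leaving out each mouse. Levels per kilobase divide by the exon length of GENCODE M21, and positions and promoters are from RefSeq.

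The genes and lists were chosen with earlier results of these data known. Every gene of the set is named. Values per mouse are given for those with an unadjusted p under 0.05 or groups that do not overlap, and, chosen after their values were seen, for 7 others (Xpc, Ddb2, Cetn2, Gtf2h2, Mad2l2, Primpol and Rad18). Of other lists, called genes and up to 4 with the smallest p are named. Acp2 was added for its overlap. Mki67, Tyms, Mcm2, Mcm5, Reln, Acta2, Alb, Apob and Serpina1a were added as markers, chosen after their values were seen.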

Additional observations from a re-analysis of the deposited data

Results flagged for a closer look

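Among 74 groups of 4 mice examined (37 genes in 2 groups) 2 held a mouse far from the other 3 relative to the group's range, and chance alone flags about 1 in 20 such groups. Lig1 was 4.09 in MOCA mouse 4, while the other MOCA mice were at 2.45 to 2.66. Ddb2 was 3.37 in MOCA mouse 1, while the other MOCA mice were at 2.59 to 2.69.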

How the results depend on the processing

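Of 20 alternatives, DESeq2 called 2 genes higher (Polk and Ube2b) and scaling to equal sums called 1 (Ube2b), where limma called 0; both called 1 of the other pathway genes, Chd1l, where limma called 0. No alternative called any of the 36 lower. Scaling to equal sums moved the median log2 fold change of the 36 from 0.10 to 0.14 and that of all tested genes from 0.01 to 0.05, a shift of 0.048 over all genes. Leaving out 1 mouse gave medians of 0.07 to 0.10 for the 36. Over all tested genes, where limma called 80, DESeq2 called 425 (3.61% of those with an adjusted p), scaling to equal sums 169 (1.41%), and leaving out 1 mouse 29 to 77. The mouse numbers did not pair the samples (correlations of same-numbered deviations -0.07 to 0.04, with 0 mice closest to their own number); with the replicate block 0 of the 36 were called, the median was 0.10 and 30 genes were called in all.

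The sign was the same in every setting for 27 of the 36 genes. It turned for 9, all with log2 fold changes near 0. Leaving out 1 mouse turned the log2 fold change or moved it by over 1.5 times for 27 of the 36. Upper quartile scaling gave -0.0060 for Xpc and -0.016 for Ercc4, which was -0.0026 under median of ratios, -0.0032 under edgeR and -0.0048 under DESeq2; Gtf2h1 was 0.039 after scaling to equal sums. Leaving out 1 mouse gave -0.052 to 0.059 for Xpc, -0.0094 to 0.11 for Ercc2, -0.029 to 0.039 for Ercc4, -0.012 to 0.17 for Ercc6, -0.0053 to 0.088 for Ercc8, -0.074 to 0.033 for Gtf2h1, -0.15 to 0.0018 for Gtf2h4, -0.17 to 0.031 for Polh and -0.076 to 0.091 for Rev1. The cause was not tested. Depth limits Rad18 most, with 10 to 28 reads a library.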
